A study of Mus musculus with 23 samples.

Results

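The arrays described here are the vehicle arrays of a mouse hypothalamus experiment, set apart by how much RNA of the prolactin gene, Prl, they carried. Hypothalamic RNA from male db/db mice, which lack a functional leptin receptor, was hybridised to 23 Affymetrix whole-transcript arrays. The mice were 8 weeks old and had eaten normal chow for 2 weeks. They received either celastrol, a plant triterpenoid, or its vehicle DMSO (25 µl per day) by intraperitoneal injection, and tissue was compared at 6 h, 1 day and 4 days. The labels give 250 µg/kg of celastrol for 6 h, while no dose for 1 and 4 days is given in the sources used here. Of 12 vehicle arrays, the 4 with a log2 Prl level above 9 are called the high-Prl arrays. They were thus chosen by the measured level of Prl itself, on its only single-gene probe set. They were replicates 2 and 4 at 6 h, replicate 1 at 1 day and replicate 2 at 4 days. The 8 other vehicle arrays were 2 at 6 h, 3 at 1 day and 3 at 4 days. All 12 arrays were from mice of the same genotype given the same vehicle. The 11 celastrol arrays, 3 at 6 h and 4 at each later time, had no part in the choice of arrays.

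The pituitary gland hangs from the floor of the hypothalamus by a stalk, so that a dissection of the hypothalamus can take some of it along. Its anterior lobe makes prolactin, growth hormone, thyrotropin, the gonadotropins and corticotropin, each in its own cell type. Thyrotropin and the gonadotropins are pairs of a shared alpha subunit, Cga, and a beta subunit of their own. The pars tuberalis, a sheet of anterior pituitary cells around the stalk, makes mainly Cga and Tshb. The intermediate lobe makes Pomc, the precursor of corticotropin and of melanocyte-stimulating hormone, which neurons of the arcuate nucleus make as well.

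Values are log2 expression from RMA, 1 probe set per gene for 18704 genes, so a difference of 1 is a 2-fold change. Array medians lay between 8.57 and 8.64, and no 2 arrays held identical values. The SD over genes was 1.89 to 1.93 on the high-Prl arrays, against 1.89 to 1.96 on the other vehicle arrays. The labels call every array a biological replicate and do not say whether mice were pooled.

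Because Prl chose the arrays, the differences between high-Prl and other vehicle arrays are given with no test. They are limma coefficients with time as a term, each with its standard error (SE). In bulk tissue, fewer cells of a type and less RNA per cell cannot be told apart.

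Whether these sets amount to arrays with and without pituitary tissue was checked on further genes of the gland. The markers given for it, Prl and Gh, and the 5 further hormone genes were higher on the 4 arrays, Prl by the choice itself. The gland's receptors and most of its transcription factors were within 0.25 log2 units, as were most of all genes. Among the other vehicle arrays, replicate 3 at 4 days stood apart with Prl of 7.68, Pomc of 9.06 and Fshb of 7.44, the highest of the 8 in each, and 3 arrays had high Cga. The contrast is thus between arrays with more and with less RNA of pituitary hormones.

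Only 5 genes were at least 1 log2 unit higher on the high-Prl arrays (0.0267% of all genes), namely Gh, Prl, Cga, Pomc and Cyp2f2. Apart from Prl, which chose the arrays, 3 of them were hormone genes of the pituitary. In 2 of these, Gh and Prl, all 4 high-Prl arrays also lay above all 8 others (0.0107% of genes), and without the high-Prl array at 1 day this held for all 5. For Prl the separation is fixed by the limit of 9. At least 0.5 log2 units higher were 16 genes (0.0855%), and 1 gene, Slc15a2, was that much lower (0.00535%). Below 1 log2 unit, Fshb was the only hormone gene among the 16. They also held Kcnj13 of the choroid plexus list, Dcn of the meninges list, and Prg4, Fmod, Slc6a12 and Slc6a20a, which were on no list. Like Ogn of the meninges list, Fmod was high on 4-day arrays of both sets. It was 10.53 on the 4-day high-Prl array, and 10.19 and 10.48 on replicates 1 and 3 of the other 4-day arrays. On the highest-Prl array of all it was 8.78.

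**Figure D1:**
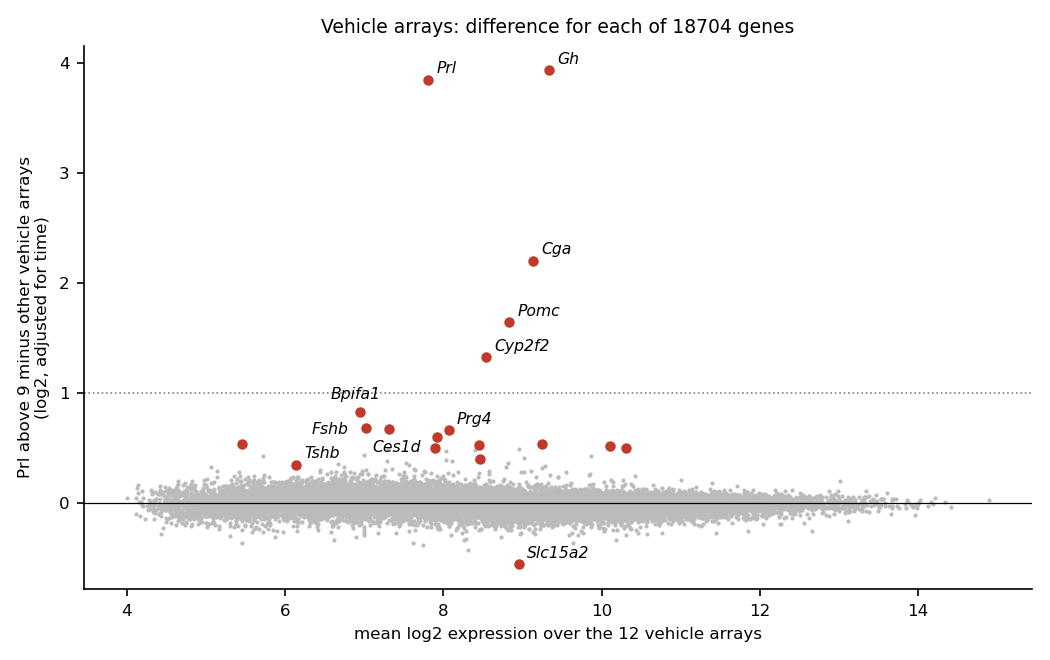
Time-adjusted log2 difference, high-Prl minus other vehicle arrays, against the mean log2 level over the 12 vehicle arrays, 1 point per gene for 18704 genes, with the genes at least 0.5 log2 units apart and the hormone genes in red. The dotted line marks 1 log2 unit, which Gh, Prl, Cga, Pomc and Cyp2f2 passed, while Slc15a2 was the lowest at -0.56.

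The sequences just upstream of the hormone genes are shown because these genes carried the pattern. They are from RefSeq (GRCm38.p6), which held an entry for 6 of the 7 hormone genes and none for Gh. The Prl promoter, chr13:27057320-27057619 on the plus strand, runs from 250 bases before to 50 bases after the start position. Capitals mark TATNCAT, a core of the sites of the lineage factor Pou1f1, on either strand, and TATAAA on the strand given.
Prl: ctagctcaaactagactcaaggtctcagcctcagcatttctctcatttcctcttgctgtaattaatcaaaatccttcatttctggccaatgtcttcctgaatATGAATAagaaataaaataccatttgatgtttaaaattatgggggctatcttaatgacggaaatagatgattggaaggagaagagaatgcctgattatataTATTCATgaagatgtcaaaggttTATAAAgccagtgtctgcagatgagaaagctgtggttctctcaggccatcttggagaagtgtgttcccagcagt

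The 50 bases before the start of the other hormone genes follow, with TATAAA in capitals. They lie at chr12:3954895-3954944 (plus strand) for Pomc, chr4:34893729-34893778 (plus) for Cga, chr3:102782715-102782764 (minus) for Tshb, chr7:45420896-45420945 (plus) for Lhb and chr2:107059652-107059701 (minus) for Fshb.
Pomc: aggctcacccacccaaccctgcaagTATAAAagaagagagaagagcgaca
Cga: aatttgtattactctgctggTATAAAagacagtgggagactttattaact
Tshb: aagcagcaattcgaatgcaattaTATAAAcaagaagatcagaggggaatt
Lhb: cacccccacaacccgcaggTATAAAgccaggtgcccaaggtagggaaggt
Fshb: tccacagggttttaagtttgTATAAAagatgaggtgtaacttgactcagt
All 6 promoters held TATAAA within 24 to 31 bases before the start, and 13.6% of 32851 promoters of the same length held it anywhere on either strand. TATNCAT was found at 2 places in the Prl promoter, and in 8.84% of all promoters on either strand. It was not found in the same stretch of 300 bases of the other 5, and TAATCC, a core of Pitx1 sites found in 7.06% of all promoters, was in none of the 6. A match is a description of the letters only.

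Prl encodes prolactin, the hormone of the lactotroph cells. By the rule all 4 high-Prl arrays lay above 9, with 11.28 and 10.93 at 6 h, 9.24 at 1 day and 10.37 at 4 days. The other vehicle arrays ran from 5.95 over a median of 6.34 to 7.68. The lowest level inside was thus 9.24 and the highest outside 7.68, on replicate 3 at 4 days. The time-adjusted difference in Prl was 3.85 ± 0.256 (SE). No fold is drawn from it, since Prl chose the arrays and its mean level was in the lowest tercile of genes.

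Gh, the growth hormone of the somatotrophs, separated the same arrays. Its levels on the high-Prl arrays were 12.70 and 11.91 at 6 h, 11.56 at 1 day and 11.67 at 4 days. The other vehicle arrays spanned 7.39 to 8.70 with a median of 8.03. No array of either set came within 2 log2 units of the other set. The time-adjusted difference in Gh was 3.93 ± 0.220 (SE), or 15.3-fold, and within a time it was 4.61 at 6 h, 3.75 at 1 day and 3.21 at 4 days.

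Pomc reached 10.84 and 10.43 on the high-Prl arrays at 6 h, 8.90 at 1 day and 9.85 at 4 days. On the other vehicle arrays it ran from 7.89 over a median of 8.06 to 9.06. Replicate 3 at 4 days, at 9.06, lay above the 1-day high-Prl array, so the sets overlapped by that 1 array. The difference in Pomc was 1.64 ± 0.232 (SE), or 3.12-fold, and within a time it was 2.45 at 6 h, 0.94 at 1 day and 1.27 at 4 days.

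Cga stood at 10.87 and 10.70 on the high-Prl arrays at 6 h, 9.89 at 1 day and 10.56 at 4 days. The other vehicle arrays spanned 7.10 to 10.27 with a median of 7.68. Of these, 3 lay above the lowest high-Prl array, with 10.09 on replicate 4 at 1 day and 10.26 and 10.27 on replicates 1 and 3 at 4 days. High Cga therefore came with high Prl on 4 arrays and without it on 3. The difference in Cga was 2.20 ± 0.593 (SE), or 4.61-fold, with the largest SE of the 7 hormone genes.

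The beta subunits differed by less. Tshb, of thyrotropin, lay at 6.41 and 6.32 on the high-Prl arrays at 6 h, 6.26 at 1 day and 6.46 at 4 days. The other vehicle arrays had Tshb from 5.89 over a median of 5.98 to 6.22. All 4 high-Prl arrays were above all 8 others, by a small margin of 6.26 against 6.22, and the difference was 0.35 ± 0.042 (SE), or 1.27-fold.

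Fshb, of follicle-stimulating hormone, lay at 7.52 and 7.57 on the high-Prl arrays at 6 h, 6.96 at 1 day and 7.77 at 4 days, against 6.50 to 7.44 with a median of 6.73 on the other vehicle arrays. The sets overlapped, with 2 other arrays above the 1-day high-Prl array, and the difference in Fshb was 0.68 ± 0.146 (SE), or 1.6-fold. Lhb, of luteinizing hormone, lay at 9.06 and 8.82 at 6 h, 8.32 at 1 day and 8.79 at 4 days on the high-Prl arrays, against 8.17 to 8.60 with a median of 8.26 on the other vehicle arrays. Here 3 other arrays lay above the 1-day high-Prl array, and the difference in Lhb was 0.40 ± 0.087 (SE), or 1.32-fold.

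Apart from Prl, all 6 hormone genes were thus higher on the high-Prl arrays, with a median difference of 1.16, where the median over all 18704 genes was 0.000433 and 50.3% of them were above 0. In each of the 7 the lowest high-Prl array was the 1-day one. In the 6 genes other than Prl all 4 high-Prl arrays exceeded the median of the other vehicle arrays.

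**Figure D2:**
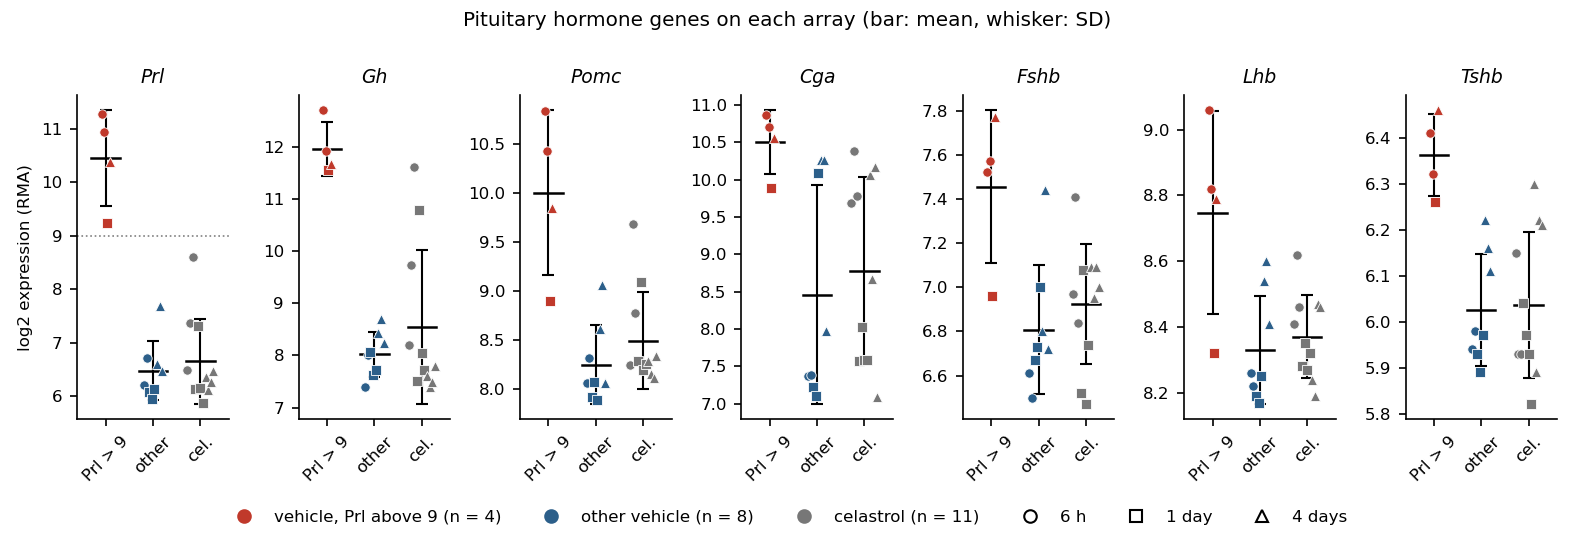
Log2 expression of the 7 hormone genes on each array, in panels with their own axis ranges, for the 4 high-Prl vehicle arrays (red), the 8 other vehicle arrays (blue) and the 11 celastrol arrays (grey, "cel."), with shapes for time, a bar at the mean and whiskers of 1 SD. Prl, Gh and Tshb show no overlap of red and blue points, while 3 blue points of Cga lie above the lowest red one at 9.89.

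The next gene in size, Cyp2f2, encodes a cytochrome P450 known from airway club cells and was on the list of other pituitary genes. Its levels were 9.35 and 9.62 on the high-Prl arrays at 6 h, 9.03 at 1 day and 9.43 at 4 days, against 7.35 to 9.27 with a median of 7.75 on the other vehicle arrays. The difference in Cyp2f2 was 1.33 ± 0.322 (SE), and 2 other arrays, replicates 1 and 3 at 4 days, lay above the lowest high-Prl array. These are arrays on which Cga was also high.

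Over all 23 arrays, Cga was above 9 on 12 and at or below 8.67 on 11. The 12 arrays comprised the 4 high-Prl arrays, 5 celastrol arrays and 3 other vehicle arrays. They were the same 12 that ranked highest for Cyp2f2, for Ces1d, a carboxylesterase, and for Apoc3, an apolipoprotein. Cyp2f2 lay at 8.64 or more on these 12 and at 8.41 or less on the rest. For Ces1d the gap was small, 7.25 against 7.22, and for Apoc3 the bounds were equal at 8.43 after rounding.

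Oacyl, an acyltransferase-like gene, lay at 8.72 and 8.47 on the high-Prl arrays at 6 h, 7.81 at 1 day and 8.06 at 4 days, against 7.43 to 7.93 with a median of 7.72 on the other vehicle arrays. Its difference was 0.50 ± 0.118 (SE), and it was 0.95 within 6 h but 0.20 at 1 day and 0.22 at 4 days. The corticotroph and melanotroph factor Tbx19 also differed mainly within 6 h, by 0.61, and by 0.21 at 4 days and close to 0 at 1 day.

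Unlike the hormones, most other genes known from the pituitary hardly differed, and the same held for most of all genes. Of 10 receptors through which the hypothalamus and the periphery act on the gland, none was more than 0.25 log2 units apart, where 0.454% of all genes were more than that higher and 0.241% lower. Their differences ran from -0.09 for Trhr, the receptor of thyrotropin-releasing hormone, to 0.07 for Gnrhr, that of gonadotropin-releasing hormone. Ghrhr, the receptor that marks somatotrophs, differed by 0.00 ± 0.061 (SE), and Drd2, the dopamine receptor of lactotrophs, by 0.06 ± 0.059 (SE). Some receptors were high on the other vehicle arrays too, with medians of 10.53 for Drd2 and 9.53 for Sstr2, while Gnrhr was low at 6.14. Whether a small share of pituitary RNA could move genes at such levels was not tested.

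Of 12 transcription factors of the gland, only Tbx19 was more than 0.25 higher, at 0.30 ± 0.102 (SE). Pitx1, which is expressed in all lineages of the anterior lobe, differed by 0.21 ± 0.075 (SE), with 4 of the 8 other arrays above the lowest high-Prl array. Nr5a1, of gonadotrophs, and Lhx3 differed by 0.13 and 0.11.

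The 10 measured genes of secretory granules and hormone processing, which neurons also express, lay between -0.09 and 0.11, and Chga, a granule protein, had the highest value. Of 15 other pituitary genes, 3 were more than 0.25 higher, as were 0.454% of all genes. They were Cyp2f2, the epithelial adhesion gene Epcam at 0.28 ± 0.072 (SE) and Aldh1a2, a retinoic acid synthesis enzyme, at 0.28 ± 0.207 (SE). For Epcam and for Aldh1a2, 5 of the 8 other arrays lay above the lowest high-Prl array. Aldh1a2 was 7.71 on the highest-Prl array of all, and 9.17 and 9.02 on replicates 1 and 3 of the other 4-day arrays. On the list of the pars tuberalis and melatonin signalling, only Tshb and Cga were more than 0.25 higher, while the melatonin receptor Mtnr1a differed by 0.07.

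**Figure D3:**
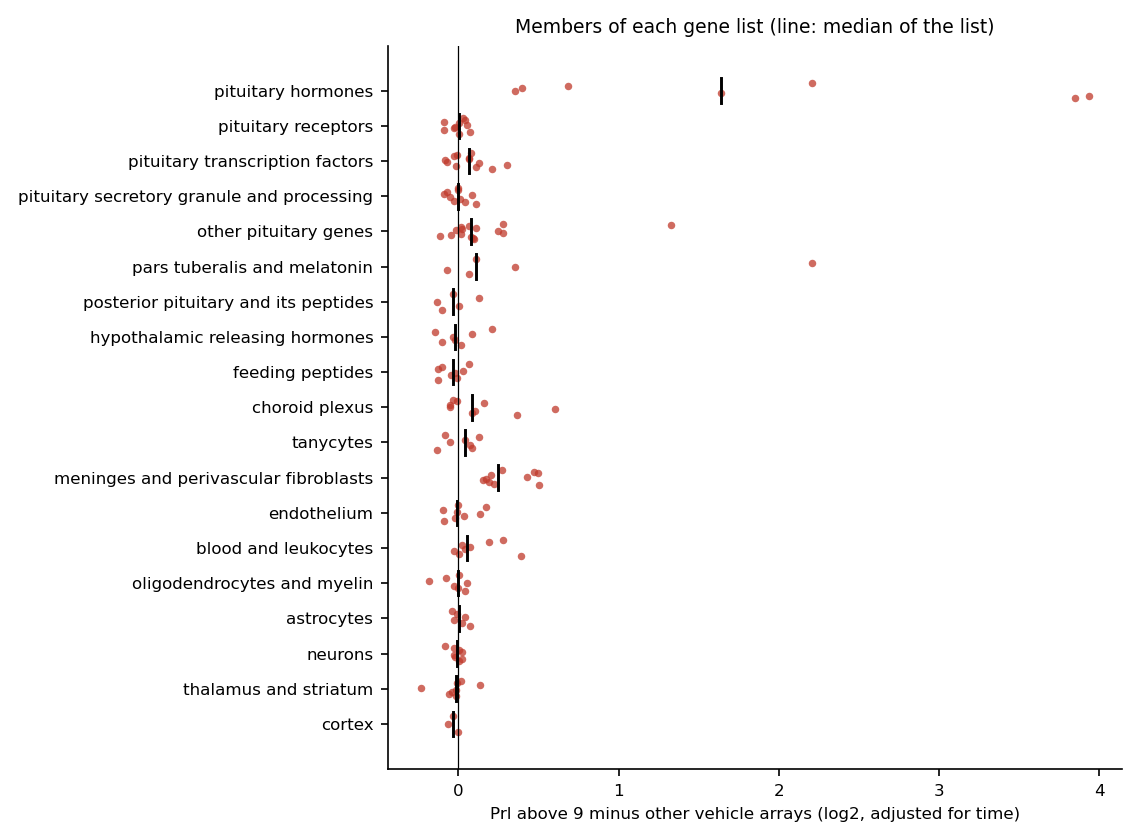
Time-adjusted log2 difference, high-Prl minus other vehicle arrays, of each member of 19 gene lists, with a black line at each list's median. The hormone genes lie from 0.35 to 3.93, the receptors and granule genes around 0, and all 10 genes of meninges and fibroblasts between 0.16 and 0.50.

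The genes listed for the posterior lobe and its peptides, and the peptides of the hypothalamus itself, did not separate the arrays. Among the 5 of the first list, including Avp (vasopressin) and Oxt (oxytocin), differences ran from -0.13 to 0.13. Avp was high on the other vehicle arrays too, at 11.95 to 12.63, and Rax and Scn7a were also on the tanycyte list. Whether posterior-lobe tissue was present was therefore not tested by these genes. Among 7 genes of releasing hormones and dopamine synthesis they ran from -0.14 for Th to 0.21 for Slc6a3, the dopamine transporter. Among 8 feeding peptides they ran from -0.13 for Tac1 to 0.06 for Kiss1. The feeding peptides' mean level was 10.81 to 10.90 on the high-Prl arrays and 10.80 to 11.14 on the other vehicle arrays. The 11.14 was on replicate 3 at 6 h, with Npy of 11.95 and Pmch of 13.48. These are levels after normalisation, and the share of hypothalamic RNA in each set was not tested.

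Markers of other tissues moved in part with the split. The 10 genes of meninges and perivascular fibroblasts were all higher on the high-Prl arrays, 5 of them by more than 0.25, with a median of 0.25. Of all genes, 50.3% were above 0 and 0.454% more than 0.25 higher. Dcn, a matrix proteoglycan, differed by 0.50 ± 0.208 (SE), and Ogn, another, by 0.47 ± 0.274 (SE). The list's mean level was 8.34 to 9.09 on the high-Prl arrays and 8.03 to 9.06 on the other vehicle arrays, so the sets overlapped over nearly their whole range. Ogn was 9.02 on the 4-day high-Prl array and 8.59 on replicate 4 at 6 h, but 7.66 on the highest-Prl array of all, and 8.92 and 9.14 on replicates 1 and 3 of the other 4-day arrays. Their part in the other differences was not tested.

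On the choroid plexus list, 2 of 9 measured genes were more than 0.25 higher, as were 0.454% of all genes. They were Kcnj13 at 0.60 ± 0.270 (SE) and Ttr, the thyroxine carrier transthyretin, at 0.37 ± 0.158 (SE). The list's median was 0.087, and 4 of the 9 were below 0. Kcnj13 was 9.38 on the 4-day high-Prl array, but also 8.94 and 9.18 on replicates 1 and 3 of the other 4-day arrays. Ttr was 8.50 on the 1-day high-Prl array and 7.28 to 7.69 on the other 3, against 7.17 to 7.98 on the other vehicle arrays. Among 8 blood and leukocyte genes, Alas2, of heme synthesis in red cells, differed by 0.39 ± 0.110 (SE) and Lyz2, of macrophages, by 0.28 ± 0.112 (SE). The other 6, S100a8 and Cd3e among them, were within 0.25, and the list's median was 0.055. No member of the lists of tanycytes, endothelium, oligodendrocytes, astrocytes, neurons, thalamus and striatum, or cortex was more than 0.25 apart.

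**Figure D4:**
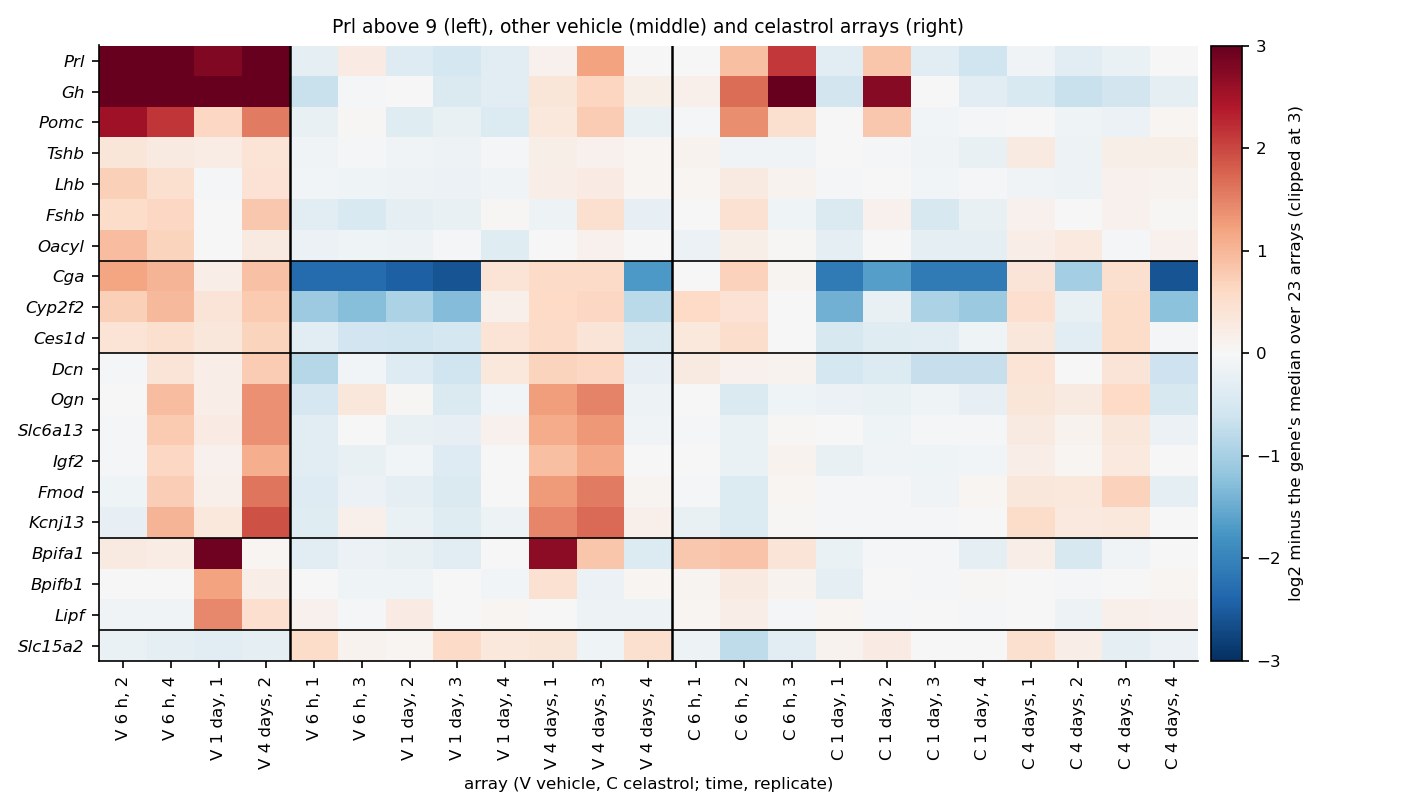
Log2 level of 20 genes on each of the 23 arrays, minus the gene's median over the arrays and clipped at 3 on both sides, with high-Prl vehicle arrays at the left, other vehicle arrays in the middle and celastrol arrays at the right. Red is higher and blue lower. Gh follows Prl, Cga, Cyp2f2 and Ces1d share a different set of arrays, and Ogn and Kcnj13 are high on 4-day vehicle arrays of both sets.

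Some genes passed 0.5 log2 units through a single array. Bpifa1, a secreted protein of airway epithelium, had 9.39 on the 1-day high-Prl array and 6.54 to 6.76 on the other 3, against 6.06 to 9.17 on the other vehicle arrays. Its time-adjusted difference of 0.83 ± 0.581 (SE) combined 3.09 within 1 day with -0.97 within 4 days. Lipf, gastric lipase, had 6.74 on the same 1-day array, and every other vehicle array was at 5.82 or less.

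Non-overlap on its own was not a mark of size. All 4 high-Prl arrays lay above the other 8 for 20 genes (0.107% of all genes) and below them for 45 genes (0.241%). Of those 20, 15 differed by under 0.25, and of those 45, 43 did. Besides Prl, Gh and Tshb, the non-overlapping genes more than 0.25 higher were Dsp, the desmosomal protein desmoplakin, at 0.38 ± 0.055 (SE), and Gnmt, glycine N-methyltransferase, at 0.30 ± 0.061 (SE).

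On the lower side 2 non-overlapping genes were more than 0.25 apart. Clp1, an RNA kinase of RNA processing, differed by -0.255 ± 0.061 (SE), with 7.34 to 7.47 on the high-Prl arrays and 7.51 to 7.83 on the other vehicle arrays. Slc15a2, a peptide transporter, lay at 8.66 and 8.59 on the high-Prl arrays at 6 h, 8.54 at 1 day and 8.59 at 4 days, against 8.71 to 9.42 with a median of 9.19 on the other vehicle arrays. The sets did not overlap, and the difference was -0.56 ± 0.122 (SE). On the celastrol arrays it ran from 8.09 to 9.34. No other gene was 0.5 log2 units lower, and the next, Zfp931, stood at -0.43. Zfp931 was 9.23 on vehicle replicate 3 at 6 h and 8.52 on replicate 1, the other array of its set at that time. That replicate 3 was also the lowest of the 12 vehicle arrays in Chga (12.52) and the highest in Tac1 (11.79).

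Ranked by likeness to Prl over the 12 vehicle arrays, as Pearson's r after subtracting each time's mean and among the 1871 genes with the highest SD, Gh came first with r = 0.989. Tshb followed with 0.972 and Pomc with 0.964, and Lhb with 0.897 and Fshb with 0.887 were among the first 8. The 10 also held Gata4 (0.911), 1700016A09Rik (0.906), Dsp (0.896), Cyp4b1 (0.884) and Rbp2 (0.873). Cga was not among them. These correlations share the arrays that chose the split and are descriptions.

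The celastrol arrays allow a test on samples the choice did not use. There Prl ran from 5.88 to 8.60 and no array passed 9. Prl was 8.60 and 7.37 on replicates 3 and 2 at 6 h and 7.31 on replicate 2 at 1 day, and at most 6.49 on the other 8. On the same 3 arrays Gh was 11.61, 9.73 and 10.79, against 7.40 to 8.21 on the other 8. The celastrol replicate 3 at 6 h thus had Gh as high as the 1-day high-Prl vehicle array (11.56) at a lower Prl.

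A slope of each gene on log2 Prl was fitted over the 11 celastrol arrays with limma and time as a term. Of 18703 genes, 1 passed a Benjamini-Hochberg adjusted p of 0.05 with a positive slope (0.00535%) and 0 with a negative one (0%), while 441 had an unadjusted p under 0.05 (2.36%). That gene was Gh, which went up by 1.85 ± 0.145 (SE) log2 units per unit of Prl (limma, adjusted p = 0.000602). Of the 2 genes that stood out in the vehicle arrays by size and non-overlap, Gh is the one that could be tested here. On the vehicle arrays the slope of Gh on Prl was 1.00 ± 0.041 (SE), given as a description.

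No other hormone gene passed the test there. Pomc had a slope of 0.35 ± 0.170 (SE) in the celastrol arrays (limma, adjusted p = 1, unadjusted 0.0597). On the same 3 arrays, in the order of Prl 8.60, 7.37 and 7.31, Pomc was 8.78, 9.68 and 9.09, against 8.12 to 8.34 on the other 8. Its slope was 0.13 without replicate 1 at 6 h, 0.86 without replicate 3 at 6 h and 0.20 without replicate 2 at 1 day, with limma's adjusted p at 0.343 or more in each. The slopes of Tshb (-0.02 ± 0.067), Lhb (0.03 ± 0.054), Fshb (0.07 ± 0.104) and Cga (0.05 ± 0.403, all SE) had adjusted p = 1 as well. The interval of Cga is wide, and high Cga was found on celastrol arrays of low Prl, such as 10.07 and 10.17 on replicates 1 and 3 at 4 days with Prl of 6.37 and 6.26.

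Without a celastrol array, each left out in turn, the slope of Gh lay between 1.56 and 2.15, with adjusted p from 8.37e-05 to 0.0142. Under a robust fit with a variance trend, limma's adjusted p for Gh was 0.143 at the same slope.

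**Figure D5:**
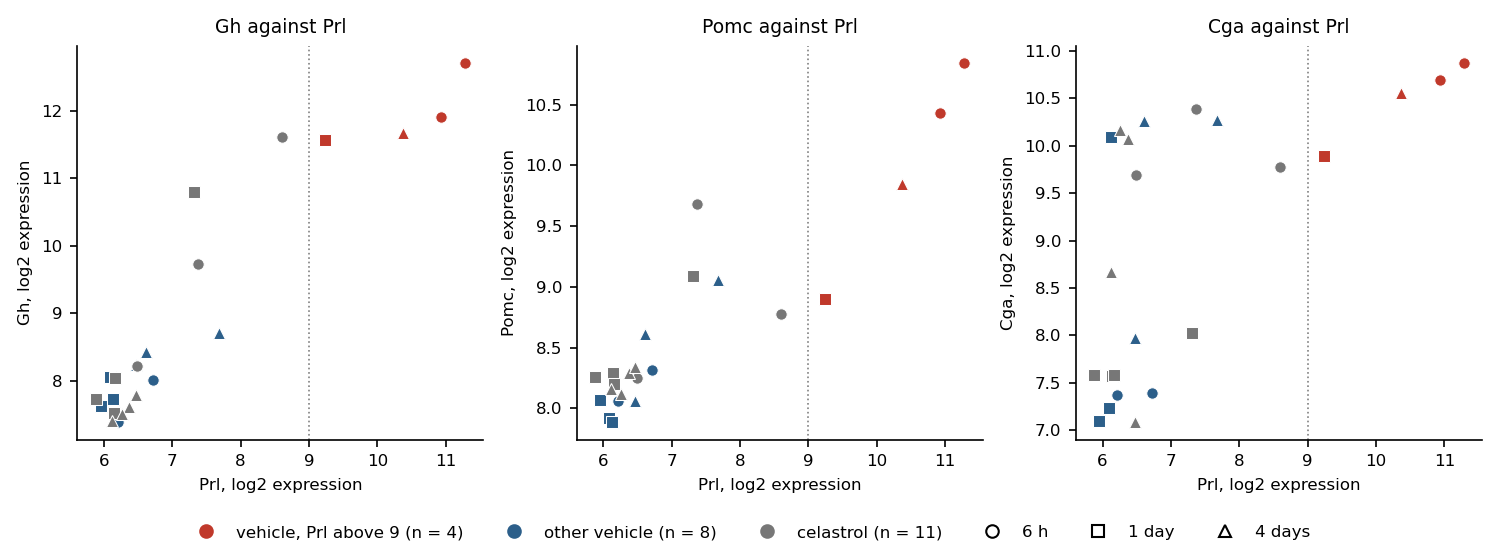
Log2 Gh, Pomc and Cga against log2 Prl on each array, with colours for high-Prl vehicle, other vehicle and celastrol arrays and shapes for time, and a dotted line at Prl = 9. Gh reached 9.73 to 11.61 on 3 celastrol arrays with Prl from 7.31 to 8.60, and at Prl below 9 Cga was high on some arrays and low on others.

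The high-Prl arrays also set the vehicle level against which celastrol is read. With all 23 arrays, Gh averaged 9.85 on the celastrol arrays at 6 h (n = 3) and 10 on the vehicle arrays (n = 4). The difference was -0.15 ± 1.18 (SE). Without the 4 high-Prl arrays Gh averaged 7.70 on the vehicle arrays left at 6 h (n = 2), and the difference was 2.15 ± 0.778 (SE). At 1 day the difference in Gh was -0.22 ± 1.09 (SE) with all arrays and 0.72 ± 0.651 (SE) without the high-Prl one. At 4 days it was -1.68 ± 1.09 (SE) with all arrays and -0.88 ± 0.651 (SE) without the high-Prl one.

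Pomc turned sign at 6 h. Celastrol minus vehicle was -0.51 ± 0.514 (SE) with all arrays and 0.71 ± 0.316 (SE) without the high-Prl arrays. At 1 day it was 0.27 ± 0.476 (SE) and 0.50 ± 0.264 (SE), and at 4 days -0.67 ± 0.476 (SE) and -0.35 ± 0.264 (SE). These pairs share their celastrol arrays, and since Prl chose which vehicle arrays to leave out, they are values with no test. The vehicle arrays left out at 6 h had the highest Pomc of their group, 10.84 and 10.43, so leaving them out could only raise the difference. Celastrol arrays with raised hormone genes were kept, such as replicate 2 at 6 h with Pomc of 9.68. That left 3 celastrol and 2 vehicle arrays at 6 h.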

How the data were processed

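Total RNA of the hypothalamus was hybridised to 1 array per sample. The authors deposited log2 values per probe set made by RMA (per the submitters' processing notes), and the sources used here name neither its software and version nor the arrays normalised together. No further normalisation was applied. Of 23492 probe sets, 20228 named 1 gene, 1399 several and 1865 none. Of the 20228, 20182 carried a current symbol and 46 the annotation's older one. Only probe sets naming 1 gene were used, and for the 809 genes with more than 1, the one with the highest mean over all arrays, which left 18704 genes with no filter on level.

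Vehicle arrays with log2 Prl above 9 were set against the other vehicle arrays in limma 3.58.1 (R 4.3.3) with time as a term, as a description without p-values (8 residual and 5.456 prior degrees of freedom). In the celastrol arrays each gene was fitted on log2 Prl with time as a term (lmFit, eBayes without trend, 7 residual and 4.683 prior degrees of freedom), with Benjamini-Hochberg adjustment over 18703 genes at 0.05. Both fits were tested on simulated data.

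The members and lists were chosen with earlier results of these data known. Genes named are all hormone genes, those at least 1 log2 unit higher without overlap, those past the test in celastrol arrays and up to 4 of each list by the size of the difference. Genes at least 0.5 log2 units apart, Zfp931, the non-overlapping genes over 0.25 in either direction, Apoc3 and the lists of the intermediate lobe, of airway and gut epithelium and of the placental prolactin family were picked with their values in view. The alternatives were other covariates, scalings, probe set choices and filters, other variance models, a replicate block and leaving out arrays. The number of arrays limits the precision. p-values measure the spread between these arrays, since the labels do not say whether mice were pooled. Promoters come from RefSeq, with 7 of 8 genes matched.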

Additional observations from a re-analysis of the deposited data

Results flagged for a closer look

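Values were screened within groups of 4 to 10 arrays for 10 genes, and 10 highest or lowest arrays in 70 groups stood farther from their neighbour than Dixon's 95% limit allows. Chance gives about 1 in 20 groups if they are independent. These groups share arrays, some were set by Prl, and the genes were picked with these data known. The count can therefore not be read against that share.

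Vehicle replicate 1 at 1 day was the highest of its group in Prl (9.24) and in Gh (11.56). Vehicle replicate 2 at 4 days was the highest of its group in Gh (11.67). All these are high-Prl arrays, which were chosen for their Prl. Among the 8 other vehicle arrays, replicate 3 at 4 days was the highest in Prl (7.68). Vehicle replicate 4 at 4 days was the lowest of its group in Cga (7.97) and in Cyp2f2 (7.82), below the high-Prl array of that time and below replicates 1 and 3.

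Celastrol replicate 2 at 1 day stood above the other 3 of its group in Gh (10.79), Pomc (9.09), Cga (8.03) and Oacyl (7.80). Its Prl was 7.31, and the other 3 had Prl from 5.88 to 6.16.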

How the results depend on the processing

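Gh and Prl were at least 1 log2 unit higher without overlap in the vehicle arrays under every alternative run, except that leaving out the lowest tercile of genes by mean level removed Prl itself and left 1 gene. Leaving out 1 vehicle array gave 2 to 5 genes, with 5 (Cga, Cyp2f2, Gh, Pomc and Prl) without vehicle 1 day replicate 1. The same 5 came without the 1-day arrays and, in an alternative chosen after seeing the data, without that array and vehicle 4 days replicate 3. Without the 4-day arrays there were 5 with Bpifa1 in place of Cga. The vehicle differences have no test.

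In the celastrol arrays the count of genes going with Prl was 1. It was 0 under a robust variance trend, where Gh also left the count of vehicle-list genes (0) with limma's adjusted p = 0.143, and 0 with the mean of Prl and Gh in place of Prl, a fit that tests neither. Unadjusted, 441 genes had p under 0.05 with Prl alone. With Gh in place of Prl, Prl was the 1 gene called. Without the 2 arrays of the farthest Prl, chosen after seeing the data, 2 genes passed, Gh (slope 2.27) and Scgb1c1. Over all 23 arrays the count was 5, with Gh, Pomc (slope 0.44), Oacyl, Lhb (0.11) and Fshb (0.18). That fit includes the vehicle arrays that Prl itself chose, so it is a description and no test. Leaving out 1 celastrol array kept the count at 1.

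Of the hormone genes that did not pass in the celastrol arrays, Tshb, Lhb, Fshb and Cga changed sign in some fits, and Pomc was positive in all, with 0.133 to 0.864 over the fits without 1 array. Tshb was 0.0177 with array weights, 0.0794 over 23 arrays and 0.101 without the 2 farthest arrays, and over the fits without 1 array it ran from -0.0516 to 0.0636. Those ranges for the rest were -0.00751 to 0.101 for Lhb, -0.0975 to 0.379 for Fshb and -0.102 to 0.285 for Cga. The causes were not tested.

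With the replicate number as a block, the counts stayed at 2 in vehicle and 1 in celastrol arrays (Gh slope 1.76, limma adjusted p = 0.0232), and the slopes of Tshb (0.0478) and Cga (-0.0974) changed sign. Among same-numbered arrays, 2 of 10 celastrol pairs and 0 of 12 vehicle pairs had a correlation over 0.1, the highest being 0.203. Differently numbered arrays were not compared, so whether arrays of the same number share anything else was not tested.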

Other observations

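The 19 measured genes of the prolactin family that the mouse expresses mainly in placenta, a list added after the values were seen, did not follow Prl on the high-Prl vehicle arrays. Their differences ran from -0.17 to 0.06 log2 units with a median of -0.01, and none was more than 0.25 apart. For the 4 genes chosen afterwards as known from the intermediate lobe, Pomc, Oacyl, Tbx19 and Pax7, the differences ran from 0.06 to 1.64. The 4 epithelial genes Bpifa1, Bpifb1, Lipf and Agr3, also chosen afterwards, ran from 0.29 to 0.83. Bpifb1 was 8.08 on the 1-day high-Prl array and 6.86 or more on the other high-Prl arrays, against 6.71 to 7.33 on the other vehicle arrays.

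Probe sets that name several genes or none, 3264 in all, were outside the comparisons. Of these, 2 were at least 0.5 log2 units higher on the high-Prl arrays, the highest by 0.52, and 0 were that much lower.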
